A study of Homo sapiens with 18 samples.

Results

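Homologous recombination copies the sequence lost at a broken chromosome from the sister chromatid, so it works mainly in S and G2 phase. Nucleases first resect the broken ends, the BRCA1 and BRCA2 complexes then load the recombinase on the single strands, and helicases take the joined molecules apart again. The Fanconi anaemia pathway repairs crosslinks between DNA strands: a core complex and its ubiquitin-conjugating enzyme mark the FANCI-FANCD2 pair, which recruits nucleases and the recombination factors. Many genes of both pathways are transcribed in a cell-cycle-dependent way from E2F-bound promoters, and Rb, the protein that CDK4/6 inhibitors keep active, holds E2F factors in check.

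The genes described here are 39 of homologous recombination, Fanconi repair, mismatch repair and the DNA damage checkpoint, chosen by a fixed list of symbols from the 60656 gene rows of the count table and placed in 8 groups by role. All 39 were found, each on 1 row. They were measured in CAMA-1 and ZR-75-1, established oestrogen receptor-positive (ER-positive) luminal breast cancer cell lines, both labelled wild-type. The cells received abemaciclib at 500 nM, palbociclib at 500 nM or an equal volume of the solvent DMSO for 5 days, in RPMI-1640 medium with serum, and total RNA was profiled by 3′ RNA sequencing. Each of the 6 groups of line and treatment held 3 libraries, 18 in all, so n = 3 for every group value. Both drugs are ATP-competitive inhibitors of CDK4 and CDK6. Each line stands for 1 tumour of origin, and no other line or tumour tissue is analysed here.

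The promoter stretches of 5 members are printed first because they belong to members that fell the furthest or changed the least on average. EXO1, FANCA and FANCE had the largest mean fall over the 4 comparisons of a drug with DMSO. Among members with a promoter window, ATR and CHEK2 had the mean log2 fold changes nearest to 0 (-0.02 and 0.02). NBN, which has no window, was nearer still (-0.01). Each stretch runs 5′ to 3′ on the gene's own strand, from 190 bases before the annotated transcription start to 12 bases after it, as RefSeq places it on GRCh38.p14. Capitals mark E2F motifs (TTTGGCGC, TTTCCCGC, TTTCGCGC or TTTGCCGC), the cell-cycle homology region motif (CHR, TTTGAA or TTCGAA) and CCAAT boxes, each on either strand. The EXO1 stretch at chr1:241848014-241848215 (plus strand) is the first of the gene's annotated starts and ends in an E2F motif. The stretch at the other EXO1 start, chr1:241848541-241848742, is not printed and holds none of these letters. The FANCA stretch at chr16:89816636-89816837 (minus strand) holds an E2F motif on the opposite strand and a CCAAT box. The FANCE stretch at chr6:35452148-35452349 (plus strand) and the ATR stretch at chr3:142578722-142578923 (minus strand) hold none of these letters, and the CHEK2 stretch at chr22:28741809-28742010 (minus strand) holds a pair of CCAAT boxes read on the opposite strand.
EXO1: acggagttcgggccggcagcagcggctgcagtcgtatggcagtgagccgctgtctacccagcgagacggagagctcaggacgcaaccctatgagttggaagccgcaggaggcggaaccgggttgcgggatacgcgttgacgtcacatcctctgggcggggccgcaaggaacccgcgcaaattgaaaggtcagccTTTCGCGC
FANCA: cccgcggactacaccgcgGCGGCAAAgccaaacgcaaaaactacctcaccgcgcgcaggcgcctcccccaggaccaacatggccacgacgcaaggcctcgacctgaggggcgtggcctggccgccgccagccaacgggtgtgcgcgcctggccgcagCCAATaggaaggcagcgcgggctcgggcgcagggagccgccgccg
FANCE: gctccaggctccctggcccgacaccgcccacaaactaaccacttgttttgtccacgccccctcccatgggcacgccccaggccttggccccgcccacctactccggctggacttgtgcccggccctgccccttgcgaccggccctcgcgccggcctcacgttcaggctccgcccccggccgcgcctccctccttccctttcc
ATR: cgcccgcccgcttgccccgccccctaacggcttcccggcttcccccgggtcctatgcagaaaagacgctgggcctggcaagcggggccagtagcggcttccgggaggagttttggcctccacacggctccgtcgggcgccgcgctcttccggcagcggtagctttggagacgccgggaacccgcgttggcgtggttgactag
CHEK2: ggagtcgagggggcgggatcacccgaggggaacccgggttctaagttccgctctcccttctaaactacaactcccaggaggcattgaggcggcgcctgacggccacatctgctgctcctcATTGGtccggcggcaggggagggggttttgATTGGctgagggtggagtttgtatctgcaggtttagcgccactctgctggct

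The libraries held 2308442 to 4146549 counts, so that 3 counts, taken here as the limit of detection, stood for 0.723 to 1.30 CPM, the count scaled to a common library size. Values below are CPM after scaling all 18 libraries together by the trimmed mean of M-values (TMM), and such floors cover counting error only. Since the assay tags the 3′ end of each transcript, values are compared between groups within a gene, not between genes. All 8 luminal markers, among them ESR1, GATA3, FOXA1 and KRT8, lay above 3 counts in every group. Of 8 basal or mesenchymal markers, KRT5, the defining basal keratin, was at 0 in every library, and 1 (CAMA-1 with DMSO, ZR-75-1 with abemaciclib) to 3 lay above 3 counts in a group: VIM, KRT17 and CDH2 in CAMA-1 with abemaciclib and VIM, ZEB1 and CDH2 in ZR-75-1 with DMSO or palbociclib. Their summed level was 2.06 to 7.78 CPM in the CAMA-1 libraries, 34.1 to 37.9 in ZR-75-1 with DMSO and 16.5 to 22.3 with a drug, and its part in the results was not tested. The summed level of the 8 luminal markers was 5325 to 5570 CPM in CAMA-1 with DMSO, 7190 to 7312 with abemaciclib and 7697 to 7715 with palbociclib. In ZR-75-1 it was 7094 to 7469, 8208 to 8396 and 6855 to 7091 CPM. Mitochondrially encoded transcripts took 14.8% to 16.6% of counts in CAMA-1 with DMSO and 22.9% to 26.1% with a drug. In all ZR-75-1 groups they took 17.3% to 22.6%. Beyond fits that left them out, their part in the results was not tested. With those transcripts left out of the fits, the counts of members called lower were 27, 23, 19 and 8 in the 4 comparisons in the order below.

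Most of these genes were lower after 5 days of either inhibitor in CAMA-1, fewer were lower with abemaciclib in ZR-75-1, and fewer again with palbociclib in ZR-75-1. Together the 39 members took 0.122% ± 0.0044 (SD) of all counts in CAMA-1 with DMSO, 0.0574% ± 0.0040 with abemaciclib and 0.0705% ± 0.0014 with palbociclib. In ZR-75-1 the shares were 0.128% ± 0.0044, 0.0883% ± 0.0027 and 0.115% ± 0.00010. The 3 groups of a line did not overlap in this share. In bulk RNA, fewer cells in S and G2 phase and less RNA of these genes per cell cannot be told apart.

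Of the 39 members, 38 had enough counts to be tested in both lines, and a member was called where the Benjamini-Hochberg adjusted p of the edgeR quasi-likelihood test, taken over all genes tested, was under 0.05. With abemaciclib in CAMA-1, 27 of 38 were called lower, where 20.1% of all genes tested were, and 0 were called higher, where 20.3% of all genes were. Their median log2 fold change was -1.14, beside 0.01 over all genes, and 23 fell more than 2-fold. With palbociclib in CAMA-1, 23 were called lower (18.7% of all genes) and 0 higher (18.4%), with a median of -0.71 beside 0.00. With abemaciclib in ZR-75-1, 19 were called lower (18.3%) and 0 higher (17.9%), with a median of -0.71 beside -0.00. With palbociclib in ZR-75-1, 9 were called lower (13.4%) and 2 higher (14.5%), with a median of -0.23 beside -0.01, so there the members' share called lower was nearest to that of all genes.

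The 3 counts of 0 higher rested on unadjusted p-values under 0.05 for 0, 1 (ATRIP) and 4 members (MRE11, RBBP8, FANCM and ATM) in the quasi-likelihood test, and DESeq2 called 0 in each. Every library with the drug lay below every DMSO library for 29 of the 38 with abemaciclib in CAMA-1, where this held for 24.1% of all genes. With palbociclib in CAMA-1 it held for 24 (23.1% of all genes), with abemaciclib in ZR-75-1 for 20 (23.4%) and with palbociclib in ZR-75-1 for 14 (19.7%).

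Across the 4 comparisons, of which the 2 of a line share their DMSO libraries, 28 members were called lower at least once, 8 in all 4 and 9 in 3. Over the 10124 genes tested in both lines, the shares called lower that often were 33.8%, 5.48% and 4.99%. The 8 lower in all 4 were BARD1, BRIP1, RAD51AP1, EXO1, FANCA, UBE2T, FANCI and CHEK1. These are a partner and a helicase of BRCA1, a stimulator of strand exchange, a resection nuclease, the Fanconi core subunit A, the Fanconi ubiquitin-conjugating enzyme, a ubiquitinated Fanconi protein and the S-phase checkpoint kinase. When single libraries were left out, between 5 and 9 members were lower in all 4, with 5 without ZR-75-1 DMSO replicate 1, ZR-75-1 DMSO replicate 3 or ZR-75-1 palbociclib replicate 3. EXO1, UBE2T and FANCI were among them in every such fit, and DESeq2 called those 3 alone in all 4 comparisons. The 9 were lower in all comparisons but 1, palbociclib in ZR-75-1 being the one missed by each: BRCA1, RAD51C, BLM, RMI1, RMI2, FANCC, FANCE, MSH6 and TOPBP1. RBBP8 was the member called in both directions, and PALB2, RAD54B, MRE11, RAD50, NBN, FANCM, CHEK2, ATM, ATR and ATRIP were called in none.

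**Figure D1:**
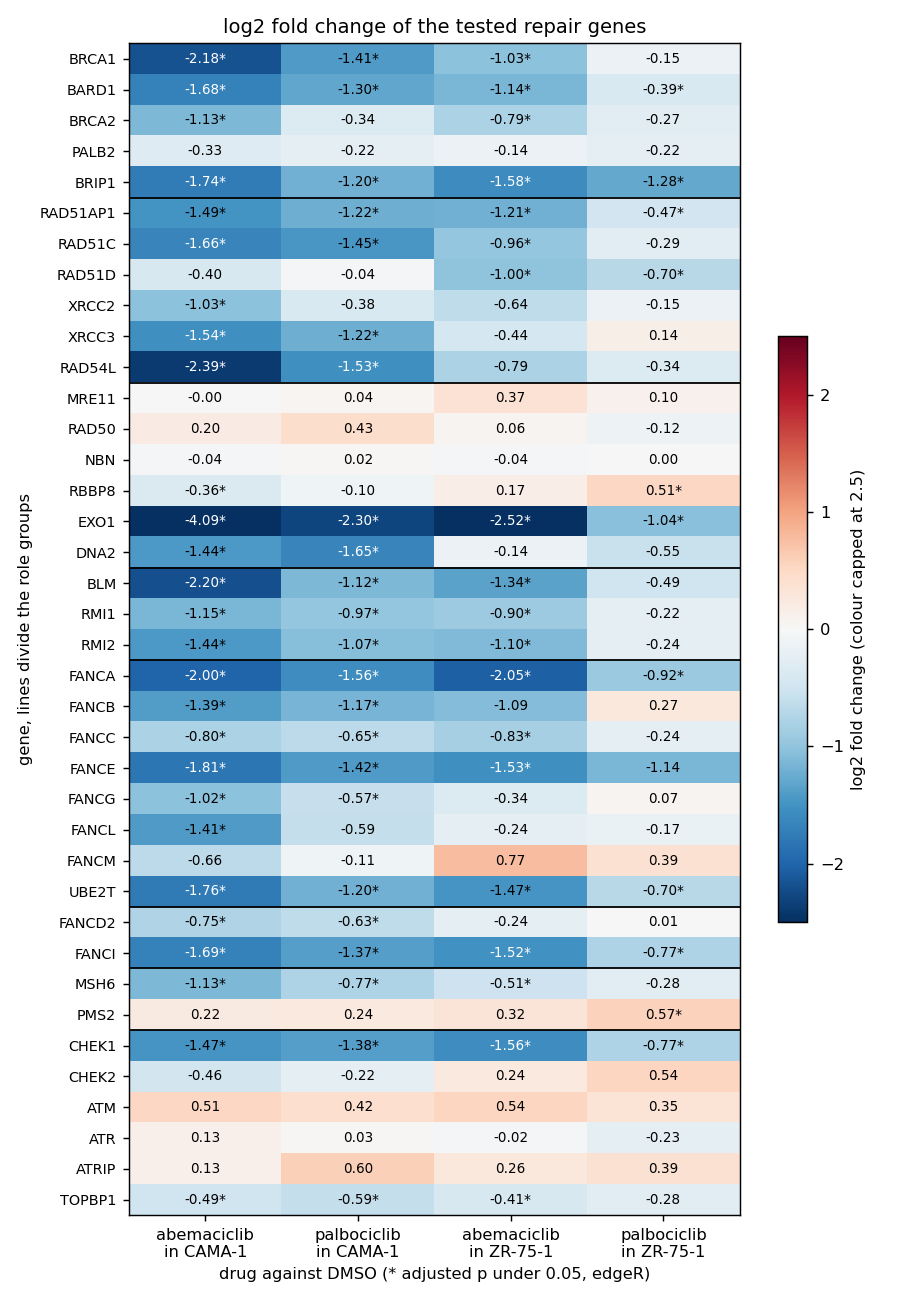
Log2 fold change against DMSO of the 38 tested members (rows, in role order) in the 4 comparisons (columns), with colour for the size and an asterisk for an adjusted p under 0.05. The EXO1 row runs from -4.09 with abemaciclib in CAMA-1 to -1.04 with palbociclib in ZR-75-1, and the palbociclib column of ZR-75-1 has the fewest asterisks, 11.

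In the BRCA1 and BRCA2 complexes every member except PALB2 fell in at least 2 comparisons with DMSO. In this group of 5, 4 were called lower with abemaciclib in CAMA-1, 3 with palbociclib in CAMA-1, 4 with abemaciclib in ZR-75-1 and 2 with palbociclib in ZR-75-1. BRCA1 (chr17:43044295-43170245, minus strand), a ubiquitin ligase that promotes resection and recombinase loading, was at 87.2, 74.1 and 93.4 CPM in the CAMA-1 DMSO libraries, at 21.9, 18.8 and 16.5 with abemaciclib and at 33.6, 32.9 and 31.5 with palbociclib. All CAMA-1 libraries with a drug lay below all with DMSO, and those with abemaciclib below those with palbociclib. The log2 fold changes were -2.18 ± 0.14 (SE) with abemaciclib, a 4.53-fold fall with an adjusted p of 7.0e-17, and -1.41 ± 0.13 with palbociclib (adjusted p = 2.2e-12). In ZR-75-1, BRCA1 was at 53.8, 53.8 and 47.2 CPM with DMSO, 18.8, 27 and 31.1 with abemaciclib and 52.8, 43.9 and 43.4 with palbociclib. Only the abemaciclib libraries stood apart from DMSO there, with a log2 fold change of -1.03 ± 0.16 (adjusted p = 2.6e-07), and the palbociclib value of -0.15 ± 0.14 did not pass (adjusted p = 0.49).

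BRIP1 (chr17:61679139-61863559, minus strand), a helicase that binds BRCA1 and acts in crosslink repair, was low in CAMA-1, at 6.05, 7.67 and 8.47 CPM with DMSO, 1.32, 1.28 and 4.05 with abemaciclib and 3.36, 2.83 and 3.73 with palbociclib. Its ZR-75-1 libraries were at 21.2, 20.5 and 25.1, 8.27, 6.58 and 7.47 and 9.22, 9.12 and 9.10 CPM. No library with a drug reached the DMSO range in either line. The log2 fold changes of BRIP1 were -1.74 ± 0.44, -1.20 ± 0.40, -1.58 ± 0.25 and -1.28 ± 0.24 in the order used above, with adjusted p-values of 0.0012, 0.016, 6.5e-07 and 2.0e-05. Its difference between abemaciclib and palbociclib in ZR-75-1 did not pass (-0.30, 95% interval -0.86 to 0.26). BARD1, the partner that BRCA1 needs to be stable, fell by 1.68, 1.30, 1.14 and 0.39 on the log2 scale, and BRCA2, which loads the recombinase, fell by 1.13 and 0.79 with abemaciclib in CAMA-1 and ZR-75-1. With palbociclib the log2 fold changes of BRCA2 were -0.34 and -0.27, neither called. PALB2, which bridges BRCA1 and BRCA2, had values of -0.33 to -0.14 and was not called. The palbociclib call of BRIP1 in CAMA-1 was lost without DMSO replicate 3 or palbociclib replicate 2 (highest adjusted p = 0.071) and in DESeq2 (0.068). That of BARD1 in ZR-75-1 was lost without DMSO replicate 1, DMSO replicate 3 or palbociclib replicate 3 (highest adjusted p = 0.29), with mitochondrially encoded genes left out (adjusted p = 0.055), with no filter on low counts (0.085), in the joint fit of all 18 libraries (0.052) and in DESeq2 (0.18).

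**Figure D2:**
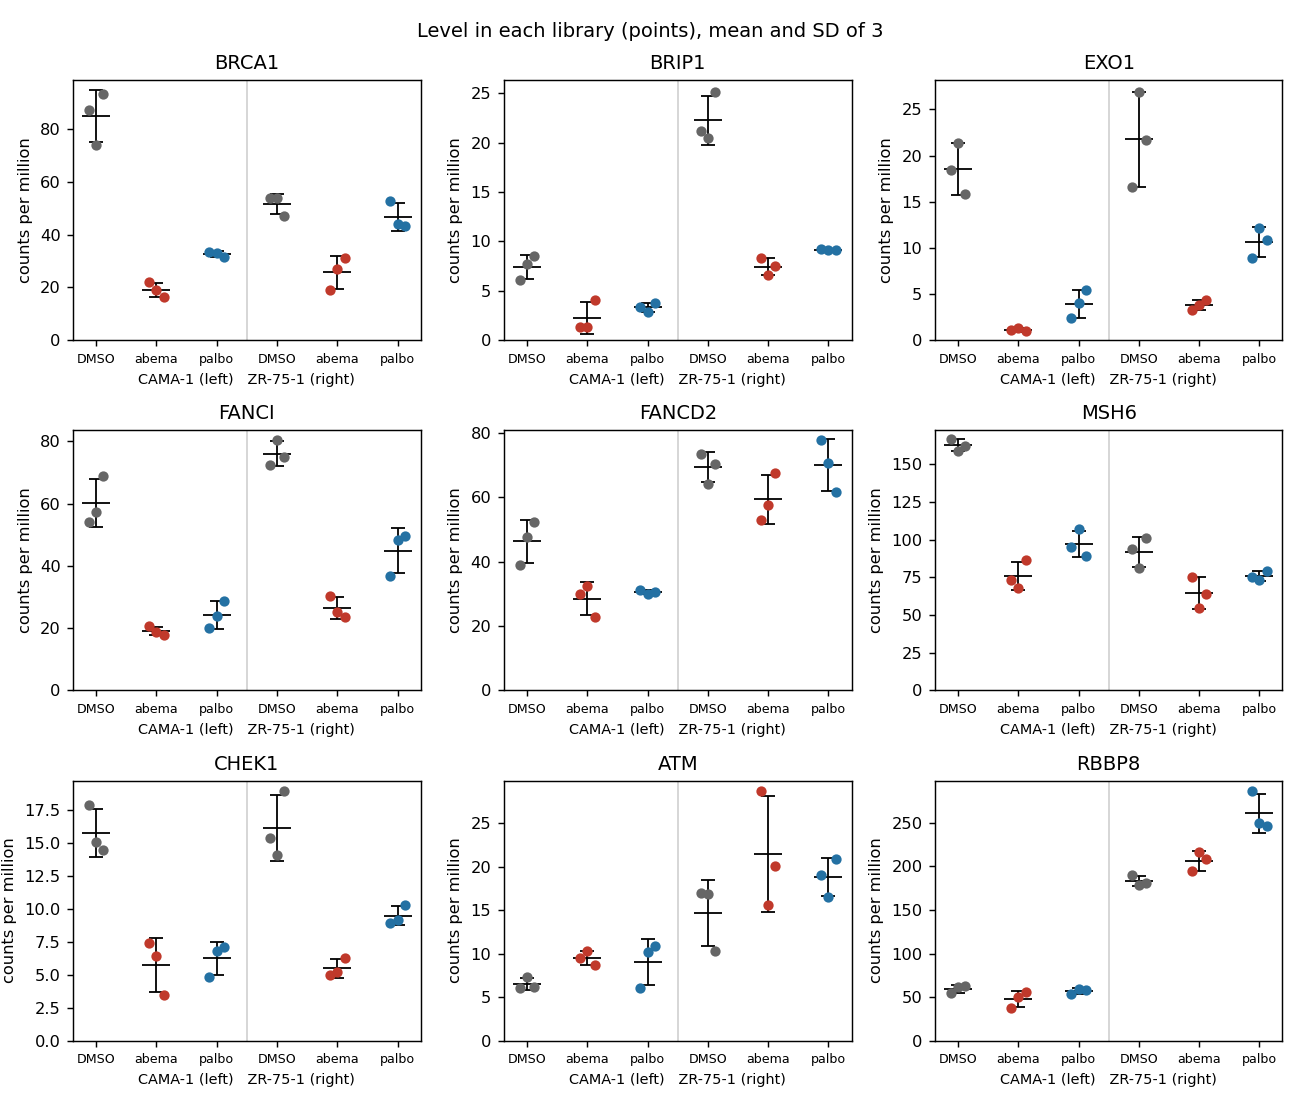
CPM (vertical axis, TMM-scaled) of 9 members in the 18 libraries, by line and treatment, with points for libraries and bars for the mean and SD (n = 3). BRCA1 steps down from DMSO to palbociclib to abemaciclib in CAMA-1, from 84.9 to 32.7 to 19.1 CPM on average, while ATM overlaps between treatments in ZR-75-1 and RBBP8 is highest with palbociclib in ZR-75-1.

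Among the genes of strand exchange, RAD51AP1 fell in every comparison with DMSO and RAD51C in all but 1. Of 6 tested members, 5 were called lower with abemaciclib in CAMA-1, 4 with palbociclib in CAMA-1, 3 with abemaciclib in ZR-75-1 and 2 with palbociclib in ZR-75-1. RAD51AP1 (chr12:4538798-4560047, plus strand), which stimulates strand pairing by the recombinase, was at 24.2, 21.4 and 25.6 CPM in CAMA-1 with DMSO, 6.86, 10.3 and 9.34 with abemaciclib and 12.2, 9.07 and 9.83 with palbociclib. Its ZR-75-1 levels were higher, at 66.9, 52.9 and 54.4, 21.2, 29.8 and 24.8 and 44.4, 45.95 and 36.1 CPM. The DMSO libraries stood above the treated ones throughout, with log2 fold changes of -1.49 ± 0.23, -1.22 ± 0.22, -1.21 ± 0.15 and -0.47 ± 0.14 and adjusted p-values of 8.0e-07, 1.3e-05, 2.7e-09 and 0.0078. RAD51C (chr17:58692573-58735611, plus strand), a paralogue of the recombinase that belongs to both of its paralogue complexes, was at 33.1, 32.4 and 30.9 CPM in CAMA-1 with DMSO, 8.44, 12.4 and 10.9 with abemaciclib and 9.35, 11.3 and 15.9 with palbociclib. It fell by 1.66 and 1.45 on the log2 scale there (adjusted p = 1.5e-08 and 1.2e-07). In ZR-75-1 RAD51C was at 56.5, 43.1 and 41.99, 19.8, 26.3 and 27.1 and 35.2, 44.3 and 37.3 CPM, where its change with abemaciclib was -0.96 ± 0.16 (adjusted p = 2.2e-06) and the palbociclib libraries overlapped with DMSO (-0.29 ± 0.15, adjusted p = 0.15).

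RAD54L (chr1:46246461-46278480, plus strand), a motor protein that remodels the recombinase filament, was near the limit of detection. It was at 6.68, 10.7 and 3.66 CPM in CAMA-1 with DMSO, 0.791, 2.14 and 1.25 with abemaciclib and 3.84, 1.70 and 1.36 with palbociclib, changing by -2.39 ± 0.54 on the log2 scale with abemaciclib (adjusted p = 3.5e-04) and by -1.53 ± 0.47 with palbociclib (0.0082). By counts, 12 against 69 over the 3 libraries of each group, RAD54L was 5.11-fold lower with abemaciclib (95% counting interval 2.75 to 10.4). In ZR-75-1 its 4.57, 4.28 and 2.06, 2.31, 3.12 and 0.786 and 2.79, 1.35 and 4.40 CPM overlapped, and neither drug passed the test (log2 fold changes -0.79 ± 0.55 and -0.34 ± 0.51). XRCC3, the partner of RAD51C, fell by 1.54 and 1.22 in CAMA-1, and its ZR-75-1 values were -0.44 and 0.14. XRCC2 and RAD51D, of the other paralogue complex, had negative values throughout. XRCC2 fell with abemaciclib in CAMA-1 (-1.03) and was not called elsewhere (-0.38, -0.64 and -0.15), its differences between the lines and, in CAMA-1, between the drugs not passing (with abemaciclib, adjusted p = 0.74 and 0.34). RAD51D fell in ZR-75-1, 2.001-fold with abemaciclib and 1.62-fold with palbociclib, and was not called in CAMA-1 (log2 fold changes -0.40 and -0.04). The difference of RAD51D between the lines did not pass with either drug (adjusted p = 0.2 and 0.11). RAD54B, a relative of RAD54L, held 0 to 18 counts a library and was not tested. Its 3 ZR-75-1 libraries with abemaciclib held 2, 0 and 0 counts, each under the limit of 3 counts. The palbociclib calls of XRCC3 (without CAMA-1 DMSO replicate 2 or palbociclib replicate 1, adjusted p up to 0.081) and RAD54L (without CAMA-1 DMSO replicate 2, 0.12) were lost, as were those in ZR-75-1 of RAD51AP1 (without DMSO replicate 1 or palbociclib replicate 3, up to 0.099) and RAD51D (without DMSO replicates 1 or 3 or palbociclib replicates 1 or 3, up to 0.13), which DESeq2 did not call either (0.054 and 0.1).

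End resection held both EXO1, which fell the furthest of the 38 tested members on average over the 4 comparisons with DMSO, and a sensor complex that was called in none of them. Of its 6 members, 3, 2, 1 and 1 were called lower in the 4 comparisons (50%, 33.3%, 16.7% and 16.7%). Over all genes tested the shares were 20.1%, 18.7%, 18.3% and 13.4%, so the counts in ZR-75-1 were near them. With palbociclib in ZR-75-1, 1 was called higher (16.7%), where 14.5% of all genes were. EXO1 (chr1:241847967-241895148, plus strand), the 5′ to 3′ exonuclease of long-range resection and of mismatch repair, was at 18.5, 21.4 and 15.8 CPM in CAMA-1 with DMSO, 1.05, 1.28 and 0.934 with abemaciclib and 2.40, 3.97 and 5.42 with palbociclib. ZR-75-1 libraries held it at 16.6, 26.9 and 21.7, 3.31, 3.81 and 4.33 and 8.94, 12.2 and 10.9 CPM. In both lines the order was DMSO, palbociclib, abemaciclib with no overlap. The log2 fold changes of EXO1 were -4.09 ± 0.40, -2.30 ± 0.31, -2.52 ± 0.30 and -1.04 ± 0.24 (adjusted p = 1.6e-11, 5.6e-08, 3.6e-10 and 6.7e-04). With abemaciclib in CAMA-1 the 3 libraries held 10 counts in all, against 191 with DMSO, a 17.0-fold fall (95% counting interval 9.04 to 36.0).

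DNA2 (chr10:68414064-68472121, minus strand), the helicase-nuclease of the parallel long-range path, fell in CAMA-1 from 8.28, 11.3 and 6.87 CPM to 2.11, 4.70 and 3.42 with abemaciclib and 3.60, 1.42 and 3.39 with palbociclib, by 1.44 and 1.65 on the log2 scale (SE 0.40 each, adjusted p = 0.0038 and 9.8e-04). In ZR-75-1 DNA2 was at 5.22, 2.45 and 2.06, 4.30, 1.38 and 3.15 and 0.559, 1.69 and 4.40 CPM, overlapping throughout, with values of -0.14 ± 0.56 and -0.55 ± 0.57 that did not pass. RBBP8 (chr18:22798261-23026488, plus strand), also called CtIP, starts resection with the MRE11 complex. It was at 54.4, 61.4 and 62.8 CPM in CAMA-1 with DMSO, 37.98, 49.6 and 56.02 with abemaciclib and 53.2, 59.5 and 57.6 with palbociclib, overlapping, and its abemaciclib value of -0.36 ± 0.13 passed (adjusted p = 0.023) while the palbociclib value of -0.10 ± 0.12 did not (adjusted p = 0.55). In ZR-75-1 RBBP8 stood at 189.9, 178 and 181 CPM with DMSO, 194, 217 and 209 with abemaciclib and 286, 249 and 247 with palbociclib. Both drugs' libraries lay above all DMSO libraries there: the palbociclib rise of 0.51 ± 0.08 passed (adjusted p = 8.2e-07) and the abemaciclib value of 0.17 ± 0.08 did not (adjusted p = 0.1). The abemaciclib call of RBBP8 in CAMA-1 was lost without DMSO replicate 2, DMSO replicate 3 or abemaciclib replicate 1 (adjusted p up to 0.28) and in DESeq2 (0.085). MRE11, RAD50 and NBN, the complex that senses broken ends, had log2 fold changes between -0.12 and 0.43 over the 4 comparisons and were not called.

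The 3 members that dissolve joined molecules fell as one group in all comparisons but the last. BLM, RMI1 and RMI2 were each called lower with either drug in CAMA-1 and in ZR-75-1 with abemaciclib. With palbociclib in ZR-75-1, 0 of the 3 were called lower by edgeR or DESeq2, and 0 had an unadjusted p under 0.05. BLM (chr15:90717346-90816166, plus strand), the Bloom syndrome helicase, was at 21.3, 14.7 and 14.4 CPM in CAMA-1 with DMSO, 2.90, 5.99 and 2.80 with abemaciclib and 8.87, 6.80 and 7.79 with palbociclib. ZR-75-1 libraries held it at 13.7, 15.9 and 17.9, 5.95, 7.27 and 5.51 and 11.2, 11.5 and 11.2 CPM. In each line the abemaciclib libraries were the lowest and the DMSO libraries the highest. The log2 fold changes were -2.20 ± 0.31, -1.12 ± 0.27, -1.34 ± 0.28 and -0.49 ± 0.25, with adjusted p-values of 1.9e-07, 8.6e-04, 8.9e-05 and 0.14. RMI2 (chr16:11249619-11381662, plus strand), a small OB-fold subunit that stabilises the BLM complex, was at 25.1, 18.7 and 26.3, 9.50, 7.70 and 9.03 and 10.1, 13.9 and 10.5 CPM in CAMA-1 and at 37.5, 42.5 and 37.2, 16.9, 18.7 and 19.7 and 36.6, 30.4 and 32.6 in ZR-75-1. The palbociclib libraries of ZR-75-1 lay just below the lowest DMSO library, with a value of -0.24 ± 0.15 (adjusted p = 0.26), whereas the other 3 changes of -1.44 ± 0.23, -1.07 ± 0.21 and -1.10 ± 0.17 had adjusted p-values of 1.4e-06, 8.5e-05 and 3.9e-07. RMI1, the scaffold of the same complex, fell by 1.15, 0.97 and 0.90 in the first 3 comparisons, and had -0.22 in the last. Without ZR-75-1 DMSO replicate 2 the abemaciclib call of RMI1 in ZR-75-1 was lost (adjusted p = 0.052).

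In the Fanconi core and its ubiquitination step, 7 of 8 members were called lower with abemaciclib in CAMA-1, 6 with palbociclib in CAMA-1, 4 with abemaciclib in ZR-75-1 and 2 with palbociclib in ZR-75-1. FANCA (chr16:89726683-89816977, minus strand), a scaffold of the core complex, was at 22.6, 25.4 and 26.1 CPM in CAMA-1 with DMSO, 8.18, 6.41 and 4.05 with abemaciclib and 9.35, 10.5 and 5.42 with palbociclib. Its levels in ZR-75-1 were 12.4, 9.17 and 12.4, 2.98, 2.77 and 2.36 and 4.47, 7.77 and 5.87 CPM. The treated libraries lay below the DMSO libraries in both lines, with log2 fold changes of -2.00 ± 0.26, -1.56 ± 0.24, -2.05 ± 0.38 and -0.92 ± 0.33 and adjusted p-values of 1.9e-08, 8.9e-07, 1.7e-05 and 0.03. FANCE (chr6:35452338-35467104, plus strand), the subunit that contacts FANCD2, was at 15.9, 20.02 and 17.4 CPM in CAMA-1 with DMSO, 6.07, 5.99 and 3.42 with abemaciclib and 7.67, 5.95 and 6.44 with palbociclib. Its ZR-75-1 levels of 4.89, 7.34 and 5.16, 2.65, 2.08 and 1.18 and 1.68, 3.38 and 2.94 CPM rested on 3 to 24 counts a library. FANCE also showed no overlap with DMSO in any comparison, with -1.81 ± 0.28, -1.42 ± 0.26, -1.53 ± 0.50 and -1.14 ± 0.46 (adjusted p = 9.1e-07, 2.1e-05, 0.012 and 0.059), the last not past the threshold.

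UBE2T, the ubiquitin-conjugating enzyme of the pathway, fell by 1.76, 1.20, 1.47 and 0.70 and was called in every fit that left out a library. It was at 148 to 172 CPM in ZR-75-1 with DMSO, 55.5 to 58.8 with abemaciclib and 90.3 to 111 with palbociclib, and at 45.7 to 49.9, 10.6 to 16.7 and 18.2 to 24.7 CPM in CAMA-1, so the 3 groups of each line were separate. FANCC, which joins FANCE in the core, fell by 0.80, 0.65 and 0.83 and had -0.24 with palbociclib in ZR-75-1. FANCB and FANCG, subunits of other parts of the core, fell in CAMA-1 with both drugs (FANCB by 1.39 and 1.17, FANCG by 1.02 and 0.57), and in ZR-75-1 had values of -1.09 and 0.27 (FANCB) and -0.34 and 0.07 (FANCG), none called. FANCL, the ubiquitin ligase itself, fell with abemaciclib in CAMA-1 (-1.41) and was at -0.59 to -0.17 elsewhere. FANCM, the translocase that finds the stalled fork, had values of -0.66, -0.11, 0.77 and 0.39 in the order used above, none called. Several of these calls rested on single libraries: FANCB with abemaciclib in CAMA-1 (without DMSO replicate 1, abemaciclib replicate 1 or abemaciclib replicate 2, adjusted p up to 0.15) and with palbociclib (without DMSO replicates 1 or 3, abemaciclib replicate 2 or any palbociclib replicate, up to 0.23), and FANCC with palbociclib in CAMA-1 (without DMSO replicate 2, 0.088). In ZR-75-1 the abemaciclib calls of FANCC (without DMSO replicate 2 or abemaciclib replicates 2 or 3, up to 0.066) and FANCE (without DMSO replicate 2 or abemaciclib replicate 3, up to 0.083) and the palbociclib call of FANCA (without DMSO replicates 1 or 3 or palbociclib replicates 1 or 3, up to 0.13) were lost in the same way. DESeq2 called neither FANCB with abemaciclib or palbociclib in CAMA-1 (adjusted p = 0.08 and 0.15) nor FANCC (0.094), FANCE (0.052) and FANCA (0.11) in these ZR-75-1 comparisons, and the FANCB call with palbociclib was also lost with no filter on low counts (0.062) and in the joint fit (0.054).

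FANCI and FANCD2 are ubiquitinated as a pair and clamp onto DNA together, and their transcripts did not change by the same amount. FANCI (chr15:89243945-89317261, plus strand) was at 54.1, 57.4 and 68.7 CPM in CAMA-1 with DMSO, 20.6, 18.8 and 17.7 with abemaciclib and 19.9, 23.8 and 28.8 with palbociclib. Its ZR-75-1 libraries were at 72.4, 80.4 and 75.04, 30.4, 25.3 and 23.6 and 36.6, 48.3 and 49.6 CPM. Its treated libraries were below DMSO in both lines, with log2 fold changes of -1.69 ± 0.16, -1.37 ± 0.15, -1.52 ± 0.14 and -0.77 ± 0.13 (adjusted p = 4.0e-12, 3.2e-10, 1.8e-13 and 3.2e-06). FANCD2 (chr3:10026370-10101932, plus strand) was at 38.8, 47.7 and 52.2 CPM in CAMA-1 with DMSO, 30.1, 32.5 and 22.7 with abemaciclib and 31.2, 30.1 and 30.5 with palbociclib, and fell by less, -0.75 ± 0.15 and -0.63 ± 0.15 (adjusted p = 7.6e-05 and 5.0e-04). In ZR-75-1 its 73.4, 64.2 and 70.2 CPM with DMSO, 52.9, 57.5 and 67.6 with abemaciclib and 77.7, 70.6 and 61.6 with palbociclib overlapped, and neither value passed (-0.24 ± 0.12 and 0.01 ± 0.12, adjusted p = 0.13 and 0.96). FANCD2 has pseudogene copies, and how shared reads were counted is not given in the sources used here.

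The ratio of counts within a library shows the same unequal change without any scaling between libraries. FANCI to FANCD2 was 1.30 ± 0.096 (SD) in CAMA-1 with DMSO, 0.681 ± 0.10 with abemaciclib and 0.792 ± 0.15 with palbociclib. The same ratio in ZR-75-1 was 1.10 ± 0.14, 0.455 ± 0.11 and 0.653 ± 0.17. Every treated library had a lower ratio than every DMSO library of its line. The ratio of CHEK1 to ATR, a kinase and the kinase that activates it, went from 1.01 ± 0.076 to 0.352 ± 0.20 and 0.433 ± 0.20 in CAMA-1, and from 0.649 ± 0.066 to 0.230 ± 0.046 and 0.455 ± 0.096 in ZR-75-1, again with no overlap with DMSO. EXO1 to MRE11, a long-range and a short-range nuclease, went from 0.550 ± 0.12 to 0.0324 ± 0.010 and 0.105 ± 0.021, and from 0.768 ± 0.20 to 0.103 ± 0.0075 and 0.353 ± 0.067. BRCA2 to PALB2 separated from DMSO with abemaciclib alone: the CAMA-1 ratios were 2.71 ± 0.37, 1.54 ± 0.29 and 2.44 ± 0.42 in the order DMSO, abemaciclib, palbociclib, and those of ZR-75-1 were 2.17 ± 0.41, 1.33 ± 0.19 and 2.10 ± 0.43. BRCA1 to BARD1 overlapped between DMSO and treated libraries in both lines, with treated libraries from 0.898 to 1.80 and DMSO libraries from 0.965 to 1.77. These pairs were chosen after their values were seen, so no test is given.

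**Figure D3:**
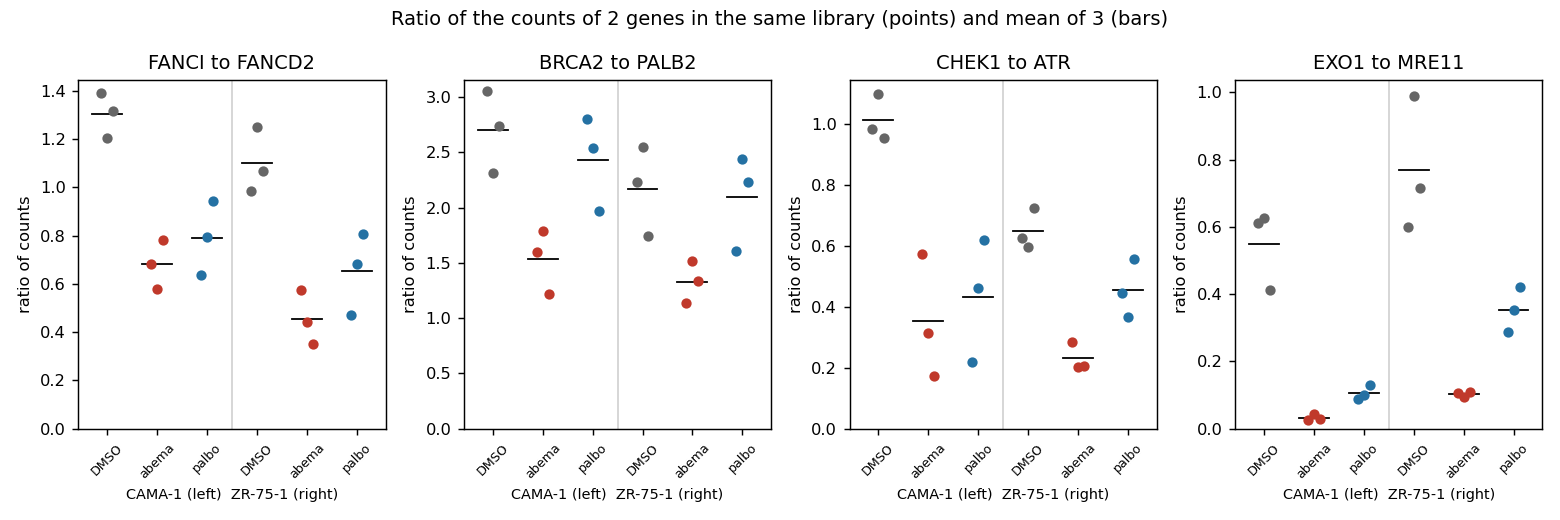
Ratio of counts of 4 pairs of members within each library (vertical axis), by line and treatment, with points for libraries and bars for their mean (n = 3). FANCI to FANCD2, CHEK1 to ATR and EXO1 to MRE11 are lower in all treated libraries than in all DMSO libraries of the line, and BRCA2 to PALB2 is lower with abemaciclib.

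The mismatch repair members were called in opposite directions, MSH6 lower in 3 comparisons and PMS2 higher in 1. MSH6 (chr2:47695530-47810063, plus strand), a subunit of the mismatch-recognising dimer, was at 167, 159 and 163 CPM in CAMA-1 with DMSO, 73.3, 67.99 and 86.5 with abemaciclib and 95.2, 107 and 89.5 with palbociclib. ZR-75-1 libraries held it at 93.7, 81.01 and 101, 75.4, 54.3 and 64.1 and 75.2, 73.3 and 79.2 CPM, below DMSO with either drug. The changes of MSH6 were -1.13 ± 0.10, -0.77 ± 0.09 and -0.51 ± 0.12 (adjusted p = 5.2e-13, 4.4e-09 and 2.9e-04), and the palbociclib value in ZR-75-1, -0.28 ± 0.11, did not pass (adjusted p = 0.055). PMS2 (chr7:5970925-6009130, minus strand), part of the endonuclease that follows, was at 6.68, 4.00 and 4.12, 5.80, 7.27 and 4.67 and 6.24, 5.67 and 5.76 CPM in CAMA-1, where groups overlapped and neither value passed (0.22 ± 0.37 and 0.24 ± 0.36). In ZR-75-1 PMS2 was at 20.6, 17.1 and 24.1 CPM with DMSO, 23.1, 27 and 27.1 with abemaciclib and 29.1, 25.7 and 36.7 with palbociclib, and it rose with palbociclib (0.57 ± 0.18, adjusted p = 0.013) while the abemaciclib value did not pass (0.32 ± 0.19, adjusted p = 0.19). That rise was lost without ZR-75-1 DMSO replicate 2 or palbociclib replicate 3 (adjusted p up to 0.14) and in DESeq2 (0.068). PMS2 has near-identical gene copies that could share its reads, so its values are uncertain.

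Of 6 checkpoint members, CHEK1 and TOPBP1 were called lower and the kinases ATM and ATR were not called. CHEK1 (chr11:125625163-125676255, plus strand), the effector kinase of the S-phase checkpoint, was at 17.8, 15.02 and 14.4 CPM in CAMA-1 with DMSO, 7.39, 6.41 and 3.42 with abemaciclib and 4.80, 6.80 and 7.12 with palbociclib. ZR-75-1 libraries held it at 15.3, 14.1 and 18.9, 4.96, 5.19 and 6.29 and 8.94, 9.12 and 10.3 CPM. No treated library reached the DMSO range. CHEK1 changed by -1.47 ± 0.29, -1.38 ± 0.28, -1.56 ± 0.29 and -0.77 ± 0.26 (adjusted p = 5.7e-05, 1.0e-04, 1.5e-05 and 0.021), the last lost without ZR-75-1 DMSO replicate 3, palbociclib replicate 1 or palbociclib replicate 2 (up to 0.11) and in DESeq2 (0.086). TOPBP1, which activates ATR, fell by 0.49, 0.59 and 0.41 in the first 3 comparisons, the third lost without ZR-75-1 DMSO replicates 2 or 3 or abemaciclib replicates 1 or 2 (adjusted p up to 0.21), with no filter on low counts (0.056) and in DESeq2 (0.15), and had -0.28 with palbociclib in ZR-75-1.

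ATM (chr11:108223044-108369102, plus strand), the kinase that answers double-strand breaks, had the largest mean change above 0 of the checkpoint members. It was at 6.05, 7.34 and 6.18 CPM in CAMA-1 with DMSO, 9.50, 10.3 and 8.71 with abemaciclib and 6.00, 10.2 and 10.8 with palbociclib, and at 16.97, 16.8 and 10.3, 28.8, 15.6 and 20.1 and 19.01, 16.6 and 20.8 CPM in ZR-75-1. The CAMA-1 abemaciclib libraries lay above all DMSO libraries and the other groups overlapped with theirs. None of its values of 0.51 ± 0.30, 0.42 ± 0.30, 0.54 ± 0.23 and 0.35 ± 0.23 passed (adjusted p = 0.19, 0.29, 0.058 and 0.27). ATR and its partner ATRIP had values of -0.23 to 0.60, and CHEK2, the effector kinase downstream of ATM, of -0.46 to 0.54, none called. Over the 9 tested members called in no comparison, the 36 log2 fold changes ran from -0.66 to 0.77 with a median of 0.05, and 14 were below 0. Their 95% intervals reached from -1.31 to 1.46, so for the low ones changes of more than 2-fold lay within the interval. Both ends were those of FANCM with abemaciclib. Its intervals, -1.31 to -0.02 in CAMA-1 and 0.08 to 1.46 in ZR-75-1, left out 0 without a call. ATRIP overlaps a neighbouring gene and CHEK2 has pseudogene copies, so reads could be shared.

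Each difference between the lines called among the members was in 1 direction. The log2 fold change was less negative, or more positive, in ZR-75-1 than in CAMA-1. The difference was tested as an interaction in a single model of all 18 libraries. With abemaciclib it was called higher in ZR-75-1 for 5 of 38 members, where 8.19% of all genes were, and lower for 0, where 10.0% were; its median was 0.29 beside -0.03 over all genes. With palbociclib it was called higher for 11 of 38 (10.0% of all genes) and lower for 0 (10.3%), with a median of 0.53 beside -0.02. At an unadjusted p under 0.05 the counts of 0 became 0 with abemaciclib and 1 (RAD51D) with palbociclib, and DESeq2 called 0 in each. BRCA1 had the smallest adjusted p with both drugs: its difference was 1.13 ± 0.22 with abemaciclib and 1.24 ± 0.19 with palbociclib (adjusted p = 7.2e-05 and 7.7e-07). RBBP8 differed by 0.51 ± 0.15 and 0.59 ± 0.14, MSH6 by 0.59 ± 0.15 and 0.47 ± 0.15 and EXO1 by 1.54 ± 0.56 and 1.23 ± 0.40, each called with both drugs. FANCM was called with abemaciclib (1.41 ± 0.47) and RAD51C, BARD1, FANCD2, RMI2, RAD51AP1, FANCI and UBE2T with palbociclib, RAD51C by the most (1.14 ± 0.25, adjusted p = 3.8e-04).

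Calls of a difference between lines lost without 1 library were, with abemaciclib, those of RBBP8 (without CAMA-1 abemaciclib replicate 1, adjusted p = 0.11), FANCM (without ZR-75-1 DMSO replicate 3 or ZR-75-1 abemaciclib replicate 1, adjusted p up to 0.13) and EXO1 (without CAMA-1 DMSO replicates 1 or 2, CAMA-1 abemaciclib replicates 1 or 3, ZR-75-1 DMSO replicates 1 or 3 or ZR-75-1 abemaciclib replicates 2 or 3, adjusted p up to 0.1). With palbociclib they were those of EXO1 (without CAMA-1 palbociclib replicate 1, ZR-75-1 DMSO replicate 1 or ZR-75-1 palbociclib replicate 2, adjusted p up to 0.099), RMI2 (without CAMA-1 DMSO replicate 3, CAMA-1 palbociclib replicate 1 or ZR-75-1 palbociclib replicate 1, adjusted p up to 0.054), RAD51AP1 (without CAMA-1 DMSO replicate 3, CAMA-1 palbociclib replicate 2, ZR-75-1 DMSO replicates 2 or 3 or ZR-75-1 palbociclib replicates 1 or 2, adjusted p up to 0.076), FANCI (without CAMA-1 DMSO replicate 3, CAMA-1 palbociclib replicate 1, ZR-75-1 DMSO replicates 1 or 3 or ZR-75-1 palbociclib replicates 2 or 3, adjusted p up to 0.11) and UBE2T (without CAMA-1 DMSO replicates 1 or 3, CAMA-1 palbociclib replicate 1, ZR-75-1 DMSO replicates 1 or 3 or ZR-75-1 palbociclib replicate 3, adjusted p up to 0.17). With no filter on low counts the calls of EXO1 with abemaciclib (adjusted p = 0.091) and of RAD51AP1, UBE2T and FANCI with palbociclib (0.061, 0.093 and 0.057) were lost, and DESeq2 gave 0.052 for EXO1 with abemaciclib. The number called with abemaciclib moved from 3 without CAMA-1 abemaciclib replicate 1 to 8 without CAMA-1 abemaciclib replicate 2 or any 1 of the CAMA-1 palbociclib replicates. With palbociclib it was 7 without CAMA-1 palbociclib replicate 1 and up to 13 otherwise, and 1 member was called lower without ZR-75-1 palbociclib replicate 2. Where the lines were not called apart, intervals were often wide: with abemaciclib the 95% interval was -0.91 to 0.77 for FANCA, -0.95 to 0.72 for CHEK1 and -0.77 to 1.05 for BRIP1, and the narrowest of these 4, -0.29 to 0.57, was that of FANCI.

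**Figure D4:**
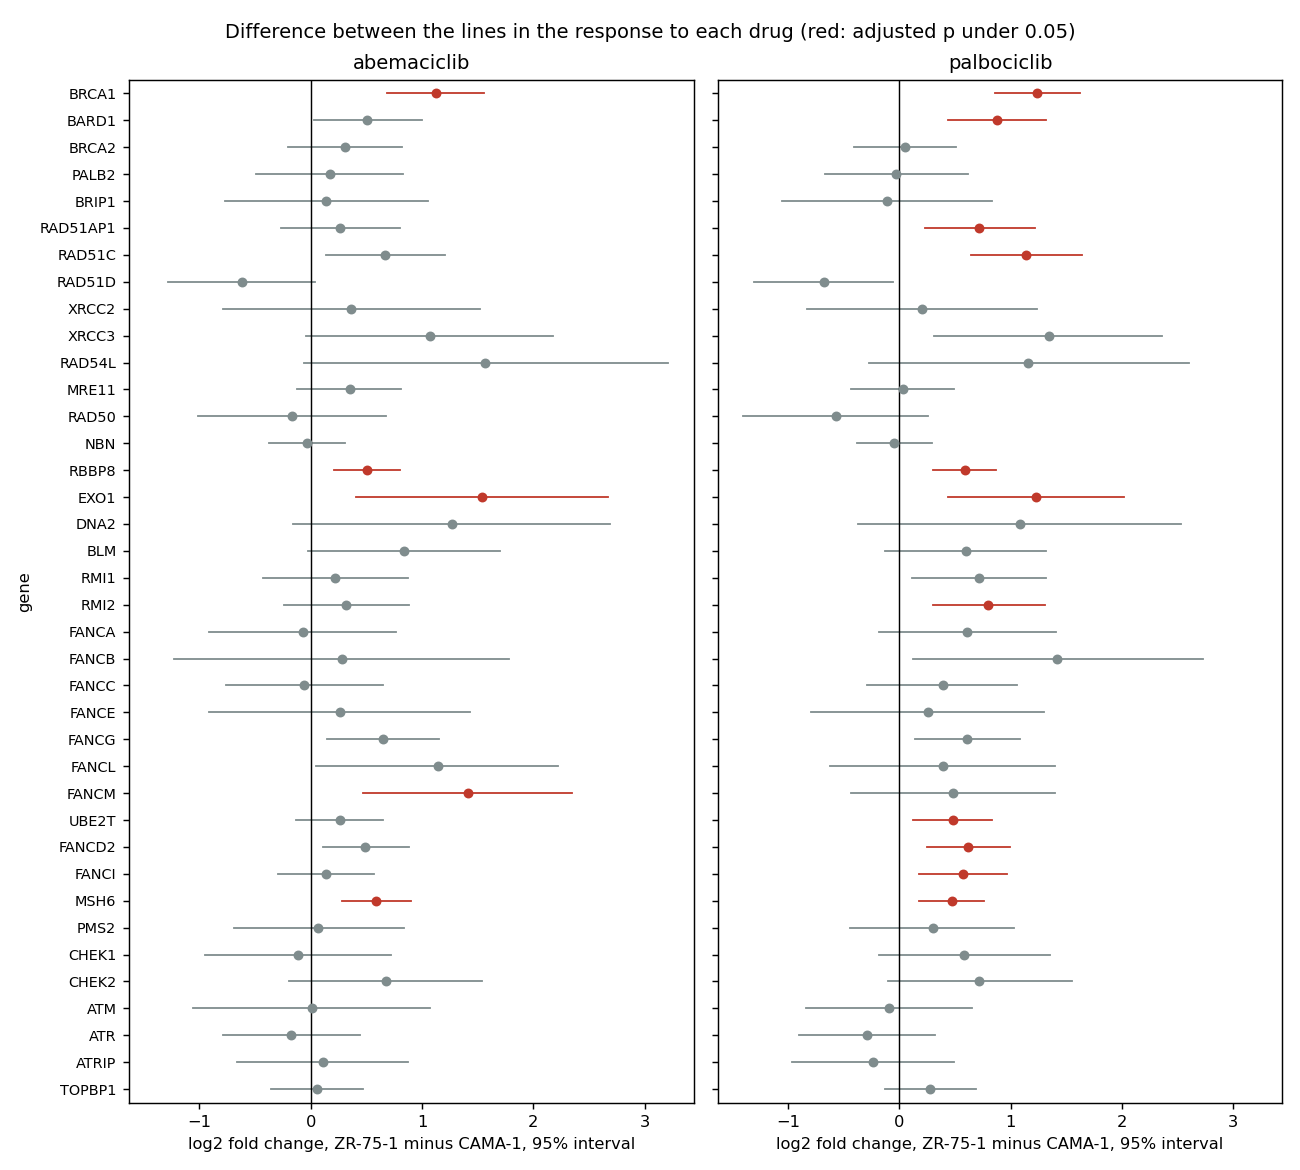
Difference in log2 fold change between the lines (ZR-75-1 minus CAMA-1, horizontal axis) with its 95% interval for 38 members, for abemaciclib (left) and palbociclib (right), with red for an adjusted p under 0.05. All red points, 5 on the left and 11 on the right, lie above 0.

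Without a drug the members differed between the lines about as often as genes in general. In DMSO, 13 of 38 members were called higher in ZR-75-1, where 31.5% of all genes were, and 11 lower, where 29.8% were, with a median difference of -0.05 beside 0.01. PMS2 was 2.06 ± 0.26 higher on the log2 scale in ZR-75-1, UBE2T 1.71 ± 0.11, RBBP8 1.62 ± 0.10, BRIP1 1.57 ± 0.27 and RAD51AP1 1.28 ± 0.16 (adjusted p = 2.3e-10, 7.9e-21, 2.9e-22, 1.0e-06 and 2.3e-10). Of the 8 Fanconi core members, 5 were lower in ZR-75-1, FANCE by -1.60 ± 0.31 and FANCA by -1.13 ± 0.25, together with FANCC, FANCG and FANCL, whereas UBE2T, FANCI and FANCD2 were higher. XRCC2 was also lower (-1.60 ± 0.35, adjusted p = 6.6e-05), as were MSH6 (-0.83 ± 0.10) and BRCA1 (-0.72 ± 0.13). CHEK1 (0.03 ± 0.24), BLM (-0.08 ± 0.24) and RMI1 (-0.02 ± 0.20) had differences near 0 (95% intervals -0.46 to 0.52, -0.56 to 0.40 and -0.42 to 0.39). The calls of PALB2 (higher in ZR-75-1, without CAMA-1 DMSO replicates 1 or 3 or ZR-75-1 DMSO replicate 3, adjusted p up to 0.23), RAD50 (lower, without CAMA-1 DMSO replicate 2 or ZR-75-1 DMSO replicates 1 or 2, adjusted p up to 0.11), FANCL (without CAMA-1 DMSO replicate 1 or ZR-75-1 DMSO replicates 1 or 3, adjusted p up to 0.072) and FANCI (without CAMA-1 DMSO replicates 1 or 2, CAMA-1 abemaciclib replicates 2 or 3, any CAMA-1 palbociclib replicate, ZR-75-1 DMSO replicate 2, ZR-75-1 abemaciclib replicate 1 or ZR-75-1 palbociclib replicate 3, adjusted p up to 0.21) were lost when 1 library was left out.

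Abemaciclib and palbociclib, aminopyrimidine kinase inhibitors of different scaffold, could be compared at the same dose and time. The methods name their RNA-seq experiments separately, and whether the arms of a line were cultured side by side is not given in the sources used here. Drug and experiment therefore cannot be told apart. The same limit bears on the comparisons with DMSO, since both drugs of a line share their DMSO libraries. All differences called among the members were in 1 direction, lower with abemaciclib. In CAMA-1, 4 of 38 were called lower (1.53% of all genes) and 0 higher (0.796%), with a median of -0.32 beside 0.00. These were BRCA1 (-0.77 ± 0.16, adjusted p = 0.0017), BRCA2 (-0.78 ± 0.19, 0.012), EXO1 (-1.79 ± 0.50, 0.04) and MSH6 (-0.35 ± 0.10, 0.047). In ZR-75-1, 12 of 38 were called lower (7.94%) and 0 higher (5.23%), with a median of -0.40 beside -0.01. Neither count of 0 gained a member at an unadjusted p under 0.05, and DESeq2 called 0 in both. UBE2T (-0.77 ± 0.11, adjusted p = 1.9e-07), BRCA1 (-0.88 ± 0.16, 2.6e-05), FANCI (-0.75 ± 0.15, 1.4e-04), RMI2 (-0.86 ± 0.17, 1.8e-04), RAD51AP1 (-0.74 ± 0.16, 4.3e-04) and EXO1 (-1.48 ± 0.32, 6.6e-04) had the smallest adjusted p-values there. BARD1, BRCA2, RAD51C, RBBP8, BLM and RMI1 were the others, with values from -0.85 to -0.34.

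RBBP8 stood below palbociclib in ZR-75-1 with all abemaciclib libraries (-0.34 ± 0.08) although neither drug lowered it against DMSO. For members not called, the intervals in ZR-75-1 held values on both sides of 0 for PALB2 (-0.36 to 0.52), MRE11 (-0.05 to 0.59), NBN (-0.31 to 0.22) and BRIP1 (-0.86 to 0.26), and for BRIP1 this covered nearly a 2-fold difference. The interval of CHEK1, -1.41 to -0.18, lay below 0 without an adjusted p under the threshold (0.081). In CAMA-1 the count of 4 became 1 without palbociclib replicate 2 and 2 without DMSO replicate 1, abemaciclib replicates 1 or 3 or palbociclib replicate 1, and BRCA1 was called in every such fit. There the calls of EXO1 (without DMSO replicate 1, any abemaciclib replicate or palbociclib replicates 2 or 3, adjusted p up to 0.19), MSH6 (without DMSO replicates 1 or 2, abemaciclib replicates 1 or 2 or palbociclib replicates 1 or 2, adjusted p up to 0.27) and BRCA2 (without abemaciclib replicate 3 or palbociclib replicates 1 or 2, adjusted p up to 0.18) were lost. In ZR-75-1 those of BRCA2 (without abemaciclib replicates 1 or 3 or palbociclib replicates 2 or 3, adjusted p up to 0.23), BLM (without any abemaciclib replicate or any palbociclib replicate, adjusted p up to 0.13), RMI1 (without any abemaciclib replicate or palbociclib replicates 2 or 3, adjusted p up to 0.15) and RAD51C (without abemaciclib replicate 1, adjusted p = 0.052) were. In DESeq2 the adjusted p was 0.089 for EXO1 and 0.1 for MSH6 in CAMA-1, and 0.12 for BRCA2, 0.13 for BLM and 0.16 for RMI1 in ZR-75-1, and MSH6 (0.067 in the joint fit), BLM and RMI1 (0.072 and 0.059 with no filter on low counts) were lost in other settings too.

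**Figure D5:**
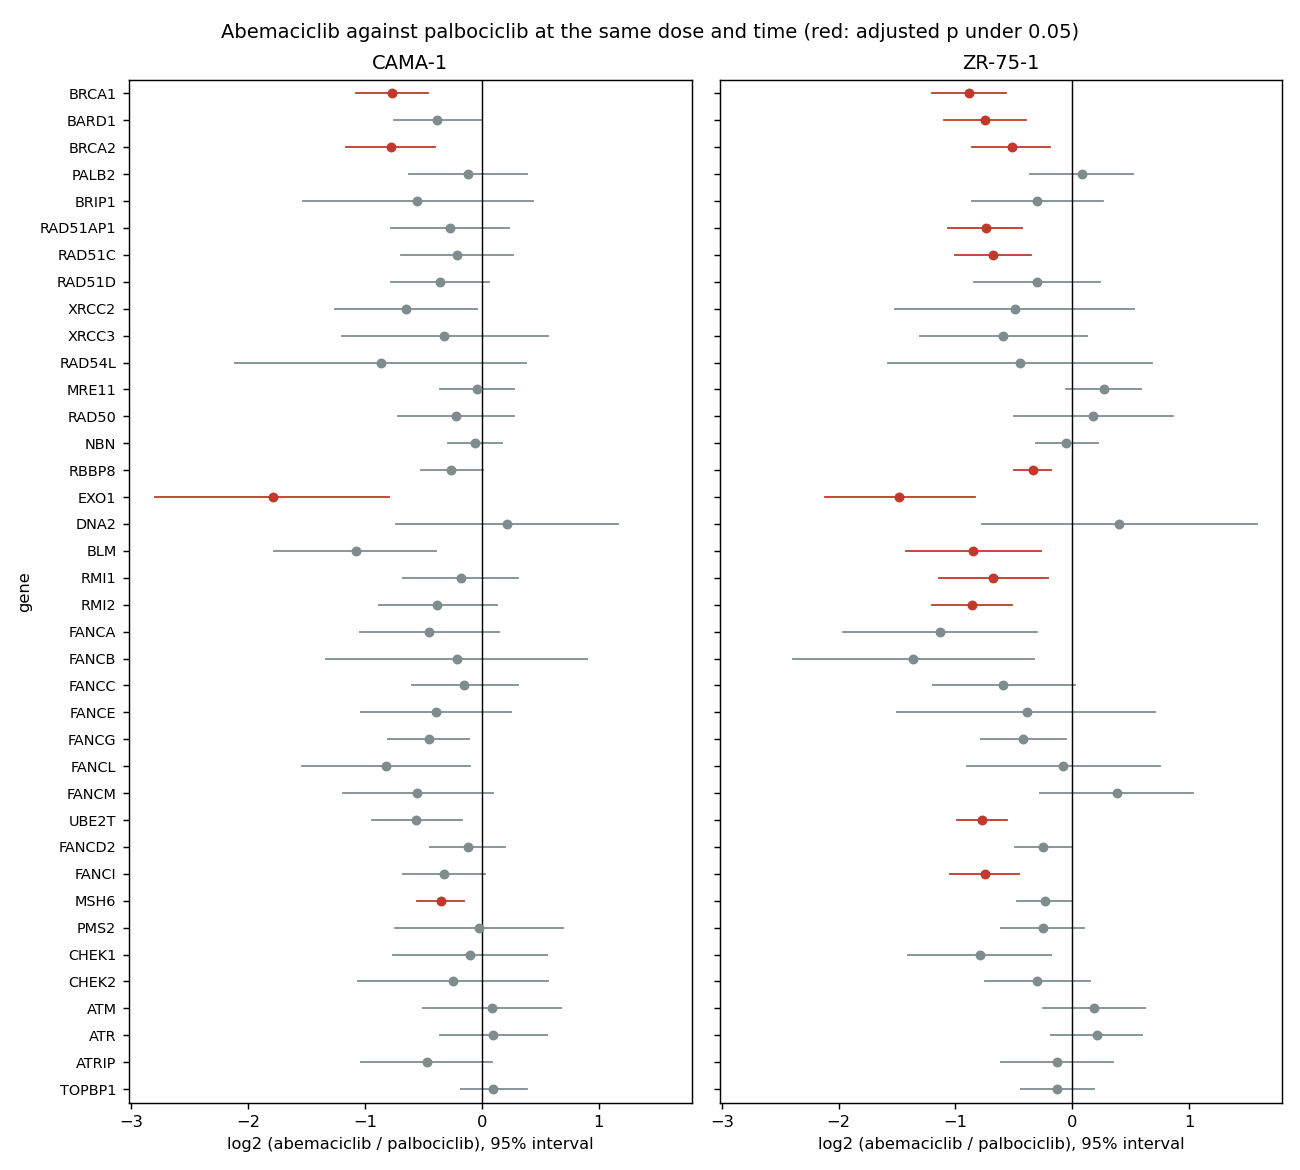
Log2 ratio of abemaciclib to palbociclib at 500 nM and 5 days (horizontal axis) with its 95% interval for 38 members, in CAMA-1 (left) and ZR-75-1 (right), with red for an adjusted p under 0.05. The 4 red points on the left and the 12 on the right all lie below 0.

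Other repair genes, listed by role and not members, give the setting. Shares of all genes called lower were 20.1%, 18.7%, 18.3% and 13.4% in the 4 comparisons, and shares called higher 20.3%, 18.4%, 17.9% and 14.5%. Of 26 other homologous recombination and Fanconi genes tested in CAMA-1, 13 (50%) were called lower and 1 higher with abemaciclib and 12 (46.2%) and 2 with palbociclib. Of 27 tested in ZR-75-1, 7 (25.9%) and 2 were with abemaciclib, and 4 lower and 4 higher with palbociclib (14.8% each), near the shares of all genes, 13.4% and 14.5%. The medians of their log2 fold changes were -0.49, -0.30, -0.12 and -0.13. RPA3, the small subunit of the single-strand binding protein, fell by 1.82, 1.35, 1.32 and 0.52, and USP1, which removes ubiquitin from FANCD2, by 0.71, 0.70, 1.29 and 0.72. Of 15 other checkpoint genes, 10, 10, 9 and 6 were called lower (66.7%, 66.7%, 60% and 40%) and 1, 0, 0 and 1 higher. CLSPN, the adaptor through which ATR activates CHEK1, fell by 2.71, 1.64, 3.26 and 0.82, and H2AX, the histone marked at breaks, by 1.46, 1.11, 1.87 and 0.79.

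Of 14 end joining genes, 8, 7, 7 and 4 were called lower (57.1%, 50%, 50% and 28.6%) and 1, 1, 0 and 0 higher; DCLRE1C, the Artemis nuclease, fell by 1.04, 0.75, 1.11 and 0.75, and POLQ, the polymerase of the microhomology path, by 1.36 with abemaciclib in CAMA-1, its other values of -0.70, -0.67 and -0.43 not passing. For nucleotide excision repair, which does not depend on replication, 3, 4, 3 and 3 of 18 genes tested were called lower (16.7%, 22.2%, 16.7% and 16.7%, near the shares of all genes) and 4, 3, 5 and 2 higher, with medians of 0.28, -0.02, 0.13 and 0.14. DDB2, its damage sensor and a p53 target, fell by 1.37, 1.89, 2.17 and 1.27, and ERCC2, a helicase of the same path, rose by 0.84 and 0.87 in ZR-75-1 and had 0.44 and 0.61 in CAMA-1. Of the 8 luminal markers, 5, 5, 4 and 1 were called higher and 1, 1, 1 and 3 lower; ESR1, the oestrogen receptor, rose by 0.86, 0.91, 0.96 and 0.77, and KRT19, a luminal keratin, by 0.71, 0.84 and 0.34 with 0.06 in the last, not called.

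Of the members, 34 had a 300-base RefSeq promoter window, 250 bases before the start and 50 after it, and DNA2, FANCI, NBN, RAD54B and RMI2 did not. An E2F motif stood in a window of 9 members, 26.5% of the 34, and in 3.99% of 27305 genes with a window. These 9 were EXO1, FANCA, FANCC, FANCD2, MSH6, PMS2, RMI1, TOPBP1 and XRCC2. A gene can have several windows, and counted by window the shares were 20% of 50 and 3.31% of 35116. The genes with a window were taken whether or not they had enough counts to be tested. The CHR motif stood in 4 members (11.8%, against 19.5% of all genes) and a CCAAT box in 18 (52.9%, against 39.7%). In the 250 bases before the start alone, the E2F motif was in 4 members (11.8%, against 3.4% of genes). Members with and without an E2F motif had the same median of their mean log2 fold change, -0.63 each. Of the 9 with the motif, 6 were called lower in 3 or 4 comparisons with DMSO and 0 were called in none, and of the 25 without it 9 and 8. FANCE and BRIP1, which fell among the furthest, held no E2F motif in their windows, and PMS2, which rose with palbociclib in ZR-75-1, held one. The search took only the exact letters listed above, so E2F sites spelled otherwise were missed, and E2F binding was not tested.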

How the data were processed

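The authors trimmed the 3′ RNA-seq reads with BBDuk, aligned them to hg38 with STAR 2.7.5b and counted reads per gene with featureCounts 2.0.1 (GENCODE v35), per the methods and the submitters' processing notes, and deposited the whole-number counts used here, not normalized, 2308442 to 4146549 a library. The library kit's strand type differs between labels and methods, and strand setting, multi-mapping and molecular identifiers were not given in the sources used here; low counts of overlapping or copied genes are therefore uncertain. Columns were matched to samples by name (0 unmatched), and 60401 of 60656 identifiers matched a symbol. Coordinates are GENCODE 44 (GRCh38). The methods state independent biological replicates.

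Counts were filtered by filterByExpr, scaled by TMM and fitted with edgeR 4.0.16 (R 4.3.3, limma 3.58.1) by the quasi-likelihood F test across all genes: 11053 for the 9 libraries of CAMA-1, 11017 for the 9 of ZR-75-1, and 11987 over all 18 libraries for differences between lines. P-values were adjusted by Benjamini-Hochberg over all genes tested. In each fit the biological coefficient of variation was 8.12% to 8.30%. Two-sided tests are used throughout. Alternatives were DESeq2 1.42.0 (the study's test), RLE and upper-quartile scaling, no filter, a replicate block, 1 joint fit, no mitochondrially encoded genes, and each library left out. The fits were tested on simulated counts with known changes. In each simulation 95 to 100 genes of each size of change, out of 10770 to 11521 genes, were altered in 1 group. That is far fewer than were called against DMSO, so the rates below hold for that setting and may differ here. Within a line, 65.3% to 79.6% of changes of 1 on the log2 scale were recovered. For the difference between lines, 62.1% (abemaciclib) and 50.5% (palbociclib) were. False calls made up 3.31% to 5.71% of calls within a line. They made up 10.8% (abemaciclib) and 5% (palbociclib) of calls for the difference between lines. Intervals are 95% intervals from the fitted standard errors. Pairs of replicates differed by more than counting noise (chi-square per degree of freedom 1.86 to 5.64), and none was merged.

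Members given in full were, in each role, the 2 with the largest absolute mean log2 fold change over the 4 comparisons with DMSO, each member called higher, and the 3 with the smallest adjusted p in each difference between lines. From other lists, the 2 with the largest absolute mean are named. Members and lists were chosen with earlier results of these data known. Sequences are from RefSeq (GRCh38.p14).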

Additional observations from a re-analysis of the deposited data

Results flagged for a closer look

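The response to a drug was called different between ZR-75-1 and CAMA-1 for 5 of 38 members with abemaciclib and 11 of 38 with palbociclib. The test was the interaction in the model of all 18 libraries (edgeR quasi-likelihood test, adjusted over all genes tested). Over all genes tested, 8.19% with abemaciclib and 10.0% with palbociclib were called higher in ZR-75-1. With abemaciclib the calls of RBBP8, FANCM and EXO1 were lost in a fit that left out a library. With palbociclib those of EXO1, RMI2, RAD51AP1, FANCI and UBE2T were lost in such a fit. Values give how much higher the log2 fold change was in ZR-75-1. With abemaciclib it was 1.13 for BRCA1 (adjusted p = 7.2e-05), 0.59 for MSH6 (0.0034), 0.51 for RBBP8 (0.009), 1.41 for FANCM (0.027) and 1.54 for EXO1 (0.046). With palbociclib it was 1.24 for BRCA1 (adjusted p = 7.7e-07), 1.14 for RAD51C (3.8e-04), 0.59 for RBBP8 (0.0013), 0.88 for BARD1 (0.0022), 0.62 for FANCD2 (0.011), 0.47 for MSH6 (0.016), 0.80 for RMI2 (0.017), 1.23 for EXO1 (0.019), 0.72 for RAD51AP1 (0.03), 0.57 for FANCI (0.03) and 0.48 for UBE2T (0.046). The mitochondrially encoded share of counts averaged 15.8% with DMSO, 24.8% with abemaciclib and 23.6% with palbociclib in CAMA-1, against 20.1%, 19.6% and 19.0% in ZR-75-1. Beyond a fit that left those genes out, its part in these differences was not tested.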

How the results depend on the processing

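For the 18 members given in full, no log2 fold change called in the main fit or an alternative reversed its direction between them. The other members were not checked for this. DESeq2 called 4 members lower and 1 higher with palbociclib in ZR-75-1 and 2 lower with abemaciclib against palbociclib in CAMA-1, against 9, 2 and 4; the cause was not tested. An E2F motif was in 4 members when the 250 bases before the start were searched alone, fewer bases than the 300 of the main search. Leaving out 1 library gave 25 to 27 members lower with abemaciclib and 20 to 23 with palbociclib in CAMA-1, and 15 to 19 with abemaciclib and 5 to 10 with palbociclib in ZR-75-1. Members called higher numbered 0 to 1 with palbociclib in CAMA-1, 0 to 2 with abemaciclib in ZR-75-1 and 1 to 3 with palbociclib in ZR-75-1. Abemaciclib against palbociclib gave 1 to 4 lower in CAMA-1 and 8 to 12 in ZR-75-1. For the difference between lines, 3 to 8 were higher with abemaciclib, and with palbociclib 7 to 13 were higher and 0 to 1 lower.

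Replicate numbers did not pair the samples: deviations from the group means correlated by -0.0777 to 0.0122 between same-numbered CAMA-1 libraries and by -0.0297 to 0.00645 in ZR-75-1, and 0 of 9 pairs a line exceeded 0.1. With the replicate block, the calls of FANCB with palbociclib in CAMA-1 (adjusted p = 0.059) and of the difference between lines of UBE2T with palbociclib (0.051) were lost, 2 members were lower with abemaciclib against palbociclib in CAMA-1 (EXO1 0.058 and MSH6 0.071 no longer passing), and the other counts of calls stayed within 1.5 times. Depth limited RAD54B and the lowest members most.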
